A study of Felis catus with 23 samples.

Results

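The circulating microRNAs (miRNAs) hsa-miR-423-5p, hsa-miR-22-3p, hsa-miR-622, hsa-miR-155-5p, hsa-miR-195-5p and hsa-miR-199a-5p, which have been studied as markers of human heart disease, were followed in cat serum. They were found on the array by name, from a list of names drawn up with earlier results of these data known, and make up 6 of the 2026 miRNA names and 13 of the 4944 miRNA probes. The cats were Felis catus, 11 with hypertrophic cardiomyopathy (HCM) and 12 healthy, with 1 serum sample and 1 array per cat. The labels give disease status only, and age, breed, treatment and whether an affected cat was in heart failure are not given in the sources used here. All sera were handled alike: blood clotted, was spun, and the serum was frozen until total RNA was isolated and labelled with the dye Cy3. Every name is that of a human probe, and no probe was matched here to a cat miRNA.

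HCM is a thickening of the heart muscle and the most common heart disease of cats. A miRNA is a short RNA that pairs through its seed, a stretch near its 5′ end, with messenger RNAs and lowers their translation or stability. Some miRNAs leave cells in vesicles or bound to protein and stay stable in serum, which is why they have been tried as blood markers. In human heart failure, miR-423-5p, miR-22-3p and miR-622 have been reported as raised in plasma or serum, although miR-423-5p was also reported as lower in acute heart failure. miR-155-5p, an immune miRNA made by activated leukocytes, and miR-199a-5p, which is linked to heart muscle growth, have been reported as raised in plasma of patients with HCM. miR-195-5p, a member of the miR-15 family that restrains the cell cycle, is known as raised in hypertrophic and failing heart muscle. These directions are background from human studies and not results of these data.

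The 23 arrays sat on 3 slides, with 3 HCM and 4 healthy arrays on slide 1 and 4 of each group on slides 2 and 3. Row 1 of each slide carried HCM sera and row 2 healthy sera, so row and group cannot be told apart. An array detected between 322 and 608 names. Its 75th percentile intensity over the 508 probes used for scaling lay between 90.5 and 699. It ran from 152 to 503 on HCM arrays and from 90.5 to 699 on healthy arrays, and its mean on the log2 scale was higher in HCM. Values without scaling between arrays keep this difference in brightness. Blood cells are a possible further source of serum miRNAs, and their part in the results was not tested beyond the relation with a red cell measure given further on. Of 6 red cell names, 5 of which were detected on at least 1 array, 3 were testable, with differences between HCM and healthy of -0.90 to 0.41 on the log2 scale. Of 5 platelet names 3 were testable (-0.56 to 0.29), and of 6 leukocyte names 3 (-0.37 to -0.17). The red cell measure used for haemolysis, log2 miR-451a minus log2 miR-23a-3p, ranged from -3.86 to 3.22 over the arrays.

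The 6 markers fell into 3 levels of detection. Detection required that 50% or more of a probe's spots on that array exceeded background by the scanner software's own test (well above background). miR-423-5p and miR-22-3p were detected on all 23 arrays, as were 270 of the 2026 names (13.3%). miR-622 was detected on 18 arrays and miR-155-5p on 6. miR-195-5p and miR-199a-5p were detected on 0 of 23 arrays, as were 1318 names (65.1%). Names detected on at least 6 arrays were tested, which left 543 names (26.8%) and 4 of the 6 markers, so the counts below cover these 4 and not the other pair.

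Values are background-subtracted signals scaled between arrays, with a floor at 2.45, on a log2 scale, and a difference is HCM minus healthy on that scale. Each name was read from its brightest probe. A difference was tested with limma across all 543 names, with Benjamini-Hochberg adjustment and a threshold of 0.05. Of the 4 tested markers, 0 passed, and 0 of the 543 names did (0%). The lowest adjusted p over all names was 0.238, and 20 names higher in HCM (3.68%) and 16 lower (2.95%) had an unadjusted p under 0.05, among them none of the markers. All 4 markers had a negative difference in these values, as did 361 of the 543 tested names (66.5%), but the sign turned for miR-423-5p in the authors' deposited values and without scaling, for miR-22-3p without scaling and for miR-622 in the total gene signal. The median difference was -0.19 over the 4 markers and -0.10 over all tested names. In these scaled values the signs were opposite to the reported rises in human blood, though for miR-423-5p a fall was reported as well. None of these 4 differences passed the test.

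miR-423-5p is the miRNA of this group best known as a plasma marker of heart failure. In HCM serum its log2 level was lowest at 6.48 (HCM replicate 12), had a median of 7.87 and was highest at 8.26. In healthy serum the lowest was 6.85, the median 7.66 and the highest 8.62. The groups overlapped almost fully: 9 of 11 HCM arrays lay within the healthy range, and 7 of 11 lay above the healthy median. The mean was 7.67 ± 0.63 (SD, n = 11) in HCM and 7.76 ± 0.51 (SD, n = 12) in healthy serum. The difference was -0.096 (SE 0.23, 95% interval -0.57 to 0.38; limma p 0.683, adjusted p 0.926). On a linear scale that interval runs from 0.672-fold to 1.30-fold. Its upper bound of 0.38 (log2) depends on the processing, and was 0.55 in the authors' deposited values and 1.0 without scaling between arrays. The second probe for this miRNA gave -0.038 and followed the first over the 23 arrays with r = 0.979. Relative to the median of all tested names the difference was 0.0059. Its sign turned without HCM replicate 7 (0.0058) or without HCM replicate 12 (0.023), the arrays with the lowest levels.

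miR-22-3p is enriched in heart and skeletal muscle and promotes growth of heart muscle cells. Of the 2 markers detected on every array it had the larger spread. HCM levels ran from 7.50 (HCM replicate 2) through a median of 8.65 to 10.93 (HCM replicate 10), and healthy levels from 8.29 through 9.11 to 10.14. The lowest and the highest array were thus both from HCM cats, and 7 of 11 HCM arrays lay within the healthy range. From lowest to highest array the level spanned 10.8-fold. The mean was 8.94 ± 0.98 (SD, n = 11) in HCM and 9.23 ± 0.62 (SD, n = 12) in healthy serum, and the median SD over all tested names was 0.47 in HCM and 0.55 in healthy serum. The groups differed by -0.29 (SE 0.32, 95% interval -0.95 to 0.37; limma p 0.381, adjusted p 0.802). In linear terms the interval runs from 0.519-fold to 1.30-fold. Both probes were close (-0.29 and -0.32, r = 0.993). Without HCM replicate 10 the difference was -0.49 with an adjusted p of 0.742, and without HCM replicate 2 it was -0.14.

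miR-622, whose targets include growth genes in tumour cells, gave signals close to the floor. Its HCM levels were 2.45 at the lowest, which is the floor (HCM replicate 10), 3.15 at the median and 4.28 at the highest. The healthy levels of miR-622 were 2.76, 3.42 and 4.03. The floor was set after scaling and is not a call of detection: on HCM replicate 10, 100% of the spots were above background. On 10 of 11 HCM arrays it lay below the healthy median, while HCM replicate 9 was the highest array of all. That median includes 4 healthy arrays without detection, and the same count over all tested names is not given. The mean was 3.11 ± 0.48 (SD, n = 11) in HCM and 3.34 ± 0.41 (SD, n = 12) in healthy serum. Its difference of -0.23 (SE 0.19, 95% interval -0.62 to 0.16) had a limma p of 0.230 and an adjusted p of 0.802. Without HCM replicate 9 the difference was -0.35 with an adjusted p of 0.651. In linear terms the interval runs from 0.651-fold to 1.11-fold. With the floor raised to 3.49 the difference was -0.018 (limma p 0.833, adjusted p 1), and on the total gene signal it was 0.19 with an upper bound of 1.02 (log2). The 3 probes gave -0.23, -0.29 and -0.19. Detection, which is called before scaling, ran the other way, on 10 of 11 HCM and 8 of 12 healthy arrays (Fisher's exact p 0.317, adjusted p 1). The 4 healthy arrays without detection were replicates 16, 20, 22 and 25, with processed signals between 2.66 and 4.62. These and HCM replicate 2, the HCM array without detection, were the dimmest of all arrays. Their 75th percentile intensities were 166 or lower, and the next array was at 171. The part of array brightness in this detection count was not tested.

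miR-155-5p was near the detection limit in both groups. It was at the floor on 9 of 11 HCM and 9 of 12 healthy arrays, so both medians were 2.45. The highest level was 3.83 in healthy replicate 17, with healthy replicate 18 next, and the highest HCM level was 2.65, in HCM replicate 2, where it was not detected. Detection was reached in HCM replicates 10 and 12 and in healthy replicates 15, 17, 18 and 26 (Fisher's exact p 0.640, adjusted p 1). The mean was 2.47 ± 0.063 (SD, n = 11) in HCM and 2.62 ± 0.43 (SD, n = 12) in healthy serum, a difference of -0.15 (SE 0.14, 95% interval -0.45 to 0.15; limma p 0.314, adjusted p 0.802). Without healthy replicate 17 the difference was -0.038, so its size rests on that cat, and values at the floor carry no order. With the floor raised to 3.49 it was -0.029. Over all 438 names detected on some but not all arrays, 0 differed in detection after adjustment (0%), and 18 had an unadjusted Fisher's exact p under 0.05.

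**Figure D1:**
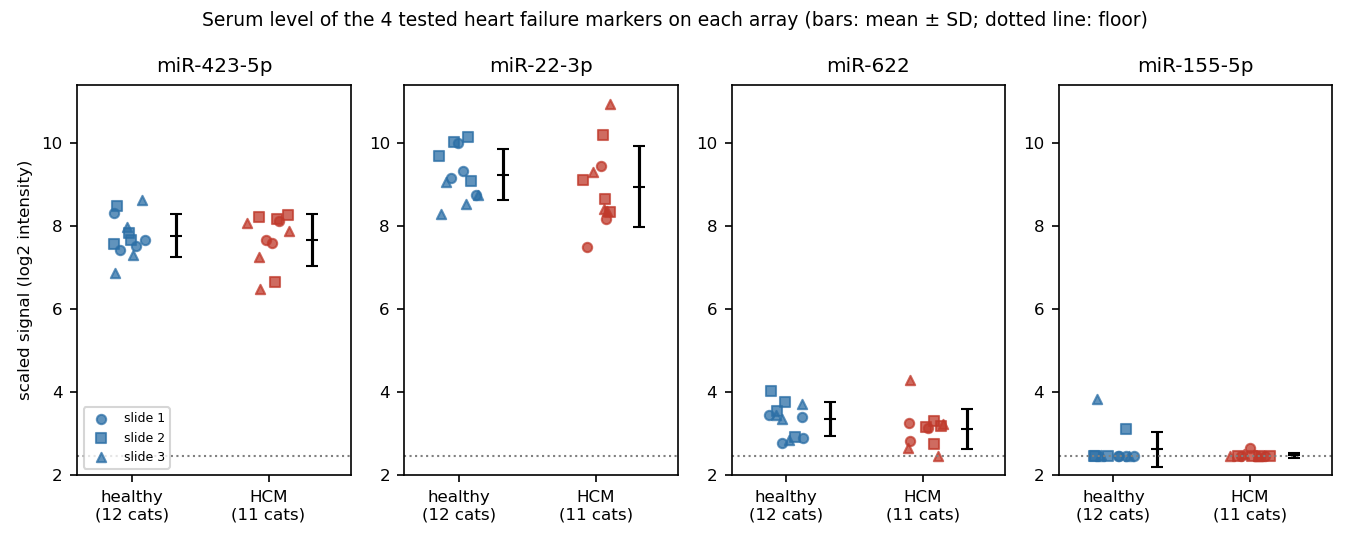
Scaled log2 signal (vertical axis) of the 4 tested markers on each array, healthy in blue and HCM in red, with marker shape for slide, mean ± SD beside the points and the floor dotted. The groups overlap for every marker, miR-22-3p spreads widest in HCM, and most miR-155-5p points lie on the floor of 2.45.

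miR-195-5p and miR-199a-5p gave no level to compare. No spot of their probes used was well above background on any of the 23 arrays. The processed signal of miR-195-5p lay between -1.22 and -0.079 and that of miR-199a-5p between -0.52 and 1.56. The dimmest detected probe of an array had a signal between 5.13 and 6.82. Neither name was among the 965 names of the authors' deposited table, which held the other 4 markers with 9 probes. Neither a rise nor a fall of these miRNAs could thus be measured on these arrays.

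The slides gave a second view of each marker, because each slide held both groups. HCM minus healthy came to 0.069, -0.057 and -0.27 for miR-423-5p on slides 1, 2 and 3. On slide 2 its sign turned in the deposited values (0.11), without scaling (0.55), with scaling over all probes (0.029) and with the mean over its probes (0.039). For miR-22-3p the difference was -0.94, -0.67 and 0.60, so the sign on slide 3 was opposite to that on the others. On slide 3 the HCM mean was 9.25 ± 1.20 (SD, n = 4) against 8.65 ± 0.32 (SD, n = 4) in healthy serum. HCM replicate 10 was at 10.93 there, and the other HCM arrays were at 8.41, 9.30 and 8.36. Healthy levels on that slide ran from 8.29 to 9.05, so the difference of 0.60 rests largely on HCM replicate 10. miR-622 was at -0.057, -0.46 and -0.19, but on slide 1 its sign turned in the deposited values (0.044), with scaling over all probes (0.037), with quantile normalization (0.084), without scaling (0.18) and on the total gene signal (0.56). With a higher floor it was 0 on slide 1 and 0.14 on slide 3. In the main values miR-155-5p was at 0.068, -0.16 and -0.34. On slide 1 its sign turned after another background correction, normexp (-0.34), without scaling (-0.017) and on the total gene signal (-0.31). On slide 2 it turned on the total gene signal (0.17). The normexp values of miR-155-5p followed those of miR-622 over the arrays with r = 0.98, and r of miR-622 with array brightness was then -0.986. None of the 12 differences in the main values had an exact permutation p under 0.05 (2-sided). The lowest was 0.143, and the smallest p the design allows is 0.0571 on slide 1 and 0.0286 on slides 2 and 3. Whether the group difference varied between slides was tested by an interaction term in limma. The p was 0.107 for miR-22-3p (adjusted 0.998) and between 0.557 and 0.855 for the others, and 0 of the 543 names passed (0%), while 13 had an unadjusted p under 0.05. A p that misses the threshold does not show that the slides were alike. With slide as a block, the differences were -0.093 for miR-423-5p, -0.30 for miR-22-3p, -0.24 for miR-622 and -0.16 for miR-155-5p.

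**Figure D2:**
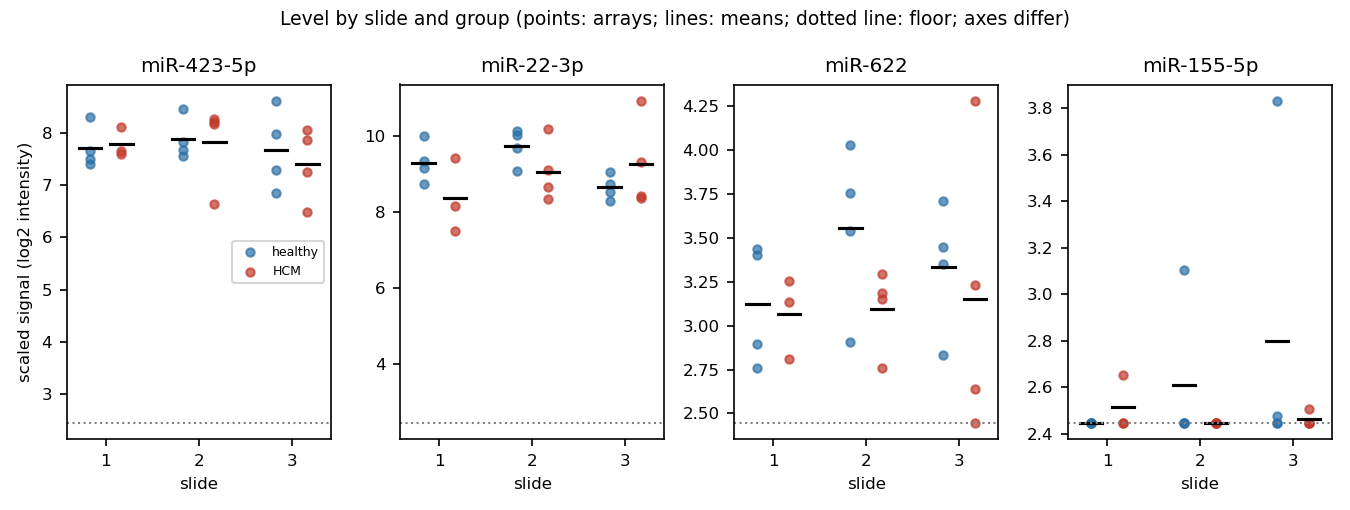
Scaled log2 signal by slide (horizontal axis) and group for each tested marker, each point an array and each line a mean, with vertical axes that differ between panels. The HCM mean of miR-22-3p lies 0.94 and 0.67 below the healthy mean on slides 1 and 2 and 0.60 above it on slide 3. The highest HCM point on slide 3 is HCM replicate 10 at 10.93, and the next is at 9.30.

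The authors' deposited log2 values, read at the same probes, were compared in the same way. There miR-423-5p was 7.75 ± 0.68 (SD, n = 11) in HCM and 7.69 ± 0.47 (SD, n = 12) in healthy serum, a difference of 0.062. miR-22-3p differed by -0.12, miR-622 by -0.11 and miR-155-5p by -0.13. On these values limma called 4 of 543 names (0.737%), none of them a marker. The median difference of the tested names depended on scaling and background correction. It was -0.10 in the main values, 0.22 without scaling, -0.25 after normexp and 0.022 in the deposited values. Normexp is a background correction that models signal and background together. Relative to that median, miR-22-3p was at -0.18 in the main values, -0.081 without scaling, 0.079 after normexp and -0.14 in the deposited values. In the same order miR-423-5p was at 0.0059, 0.11, 0.18 and 0.040, and miR-622 at -0.13, -0.30, -0.054 and -0.13. miR-155-5p was at -0.047, -0.40, -0.073 and -0.15.

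**Figure D3:**
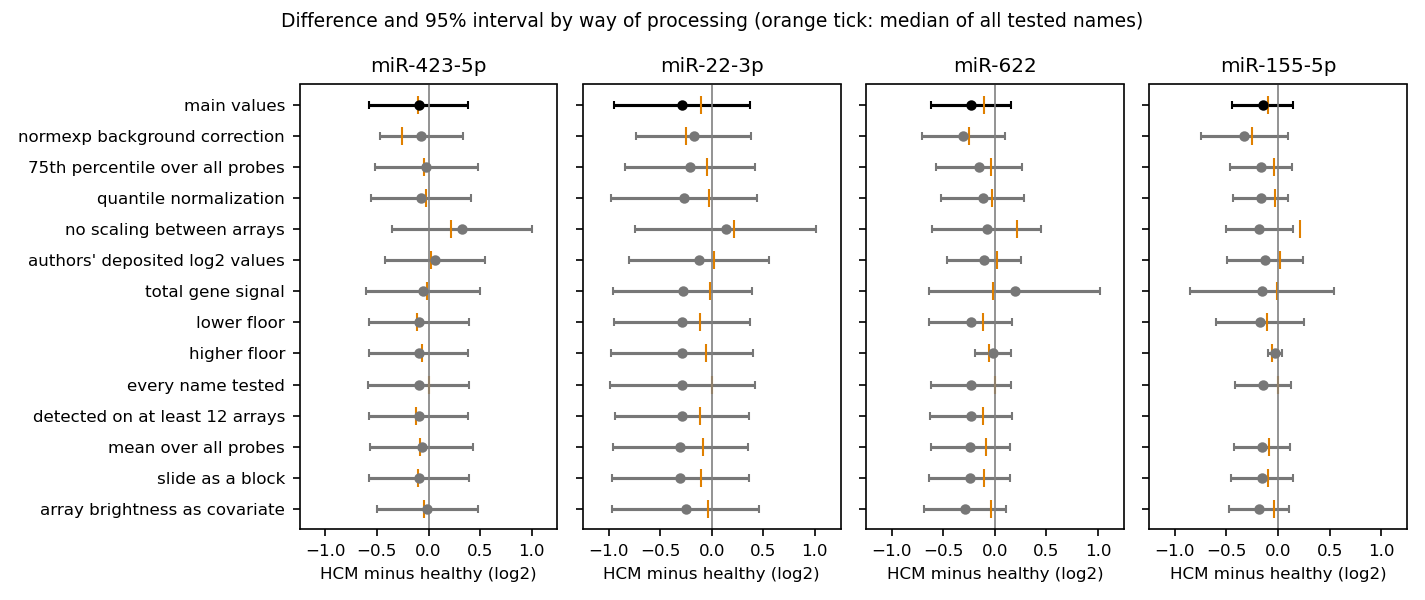
Difference HCM minus healthy (log2) with its 95% interval for each tested marker (panels) under each way of processing (rows), with the median of all tested names as an orange tick. Every interval includes 0, and without scaling the points of miR-423-5p and miR-22-3p lie at 0.32 and 0.13.

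Whether the markers varied together from cat to cat was examined by correlation. Over the 23 arrays, none of the 6 pairs of tested markers had a correlation past an adjusted p of 0.05, and r lay between -0.27 and 0.31. The highest r belonged to miR-423-5p and miR-22-3p: r = 0.31 (permutation p 0.146, adjusted p 0.650) and Spearman's rho = 0.28 (permutation p 0.193, adjusted p 0.386). Without scaling between arrays this r was 0.62 (permutation p 0.00134, adjusted p 0.00804). The largest rank correlation was that of miR-423-5p with miR-155-5p, at rho = -0.52 (permutation p 0.0103, adjusted p 0.0616) and r = -0.21 (permutation p 0.326, adjusted p 0.650), with most miR-155-5p values tied at the floor. In the main values, without the 2 arrays farthest from the median of miR-423-5p, r of miR-423-5p and miR-22-3p was 0.17. Within HCM that r was 0.43 and within healthy 0.078, and on slides 1, 2 and 3 it was -0.12, 0.51 and 0.32. For comparison, the median r over all 147153 pairs of tested names was 0.016. Array brightness and the red cell measure were compared with each marker as well, in 8 relations, of which 0 passed (r between -0.27 and 0.29, lowest adjusted p 0.653). The red cell measure gave r = 0.29 with miR-423-5p (permutation p 0.184, rho 0.24, permutation p 0.271) and r = -0.077 with miR-22-3p (permutation p 0.729, rho -0.036, permutation p 0.872). Without the 2 farthest arrays these were 0.22 and -0.11, and on slides 1, 2 and 3 they were 0.65, 0.28 and 0.34 for miR-423-5p and -0.49, 0.26 and 0.29 for miR-22-3p.

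Each tested marker had its own nearest names over the 23 arrays, given as a description. The levels most like miR-423-5p were those of miR-486-5p (r = 0.78), a red cell miRNA, miR-210 (r = 0.76), which responds to low oxygen, and miR-92a-3p (r = 0.71), of the miR-17 cluster. miR-22-3p was closest to miR-29c-3p (r = 0.83), of the miR-29 family that represses collagens, then miR-378a-3p (r = 0.77), which is rich in muscle, and miR-500a-3p (r = 0.76). miR-622 was closest to miR-550a-3-5p (r = 0.94), miR-4419a (r = 0.90) and miR-3138 (r = 0.90). For miR-155-5p, whose pattern rests on the few arrays above the floor, they were miR-605 (r = 0.79), miR-663a (r = 0.73) and the viral name hsv1-miR-H3-3p (r = 0.73). By rank these were much less alike, with Spearman's rho of 0.25, 0.42 and 0.056, where the other markers' nearest names had rho between 0.67 and 0.94. No name appears more than once among these 12.

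Other miRNAs reported in human heart failure were taken as lists and read from the same fit. Of 13 further names reported as raised in heart failure, 6 were tested: 2 differences were above 0, 4 below 0, and 0 past the threshold. Their median difference was -0.16, beside -0.10 over all 543 tested names, of which 66.5% had a negative difference. The smallest p belonged to miR-92b-3p at -0.32 (p 0.132, adjusted p 0.802), miR-18b-3p at -0.33 (p 0.164, adjusted p 0.802), miR-21-5p at -0.52 (p 0.204, adjusted p 0.802) and miR-210 at 0.029 (p 0.912, adjusted p 0.986). miR-21-5p is known from fibrosis of the failing heart. Among the miRNAs that leak from damaged muscle, miR-499a-5p was detected on 1 array, miR-208b on 2, miR-133a on 1 and miR-1 on 0, and they were not tested.

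Of 10 names reported as lower in heart failure, 3 were tested, all with negative differences and 0 past the threshold, with a median of -0.43. Over all 543 tested names, 66.5% of the differences were negative and the median was -0.10. The 3 names were miR-223-3p, a platelet and myeloid miRNA, at -0.56 (p 0.143), let-7i-5p at -0.43 (p 0.374) and miR-342-3p at -0.17 (p 0.659). The adjusted p was 0.802, 0.802 and 0.909. Of 10 further names reported as raised in plasma of patients with HCM, 6 were tested, 3 positive and 3 negative, with a median of -0.22 and 0 past the threshold. The smallest p were those of miR-30a-5p at 0.39 (p 0.179), miR-21-5p, miR-29a-3p at -0.56 (p 0.246) and miR-26a-5p at -0.56 (p 0.253), each with an adjusted p of 0.802.

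Relatives of the markers, from the same hairpin, cluster or family, were mostly under detection, as were most names on the array. Of 14 such names, 3 were tested, beside 543 of all 2026 names (26.8%). Over all names, 1318 (65.1%) were detected on no array. miR-423-3p, cut from the other arm of the hairpin that yields miR-423-5p, differed by -0.25 (95% interval -0.57 to 0.065, p 0.114, adjusted p 0.802) and was detected on 10 arrays. miR-3184-3p, encoded on the opposite strand at the human miR-423 locus, differed by 0.14 (p 0.353, adjusted p 0.802). miR-497-5p, which shares a cluster and the seed family with miR-195-5p, was detected on 19 arrays and differed by 0.31 (95% interval -0.70 to 1.33, p 0.531, adjusted p 0.860). Within the family of miR-195-5p, miR-15a-5p, miR-15b-5p and miR-16-5p were detected on 4, 2 and 3 arrays. miR-199a-3p and miR-199b-5p, relatives of miR-199a-5p, were detected on 0 arrays each.

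**Figure D4:**
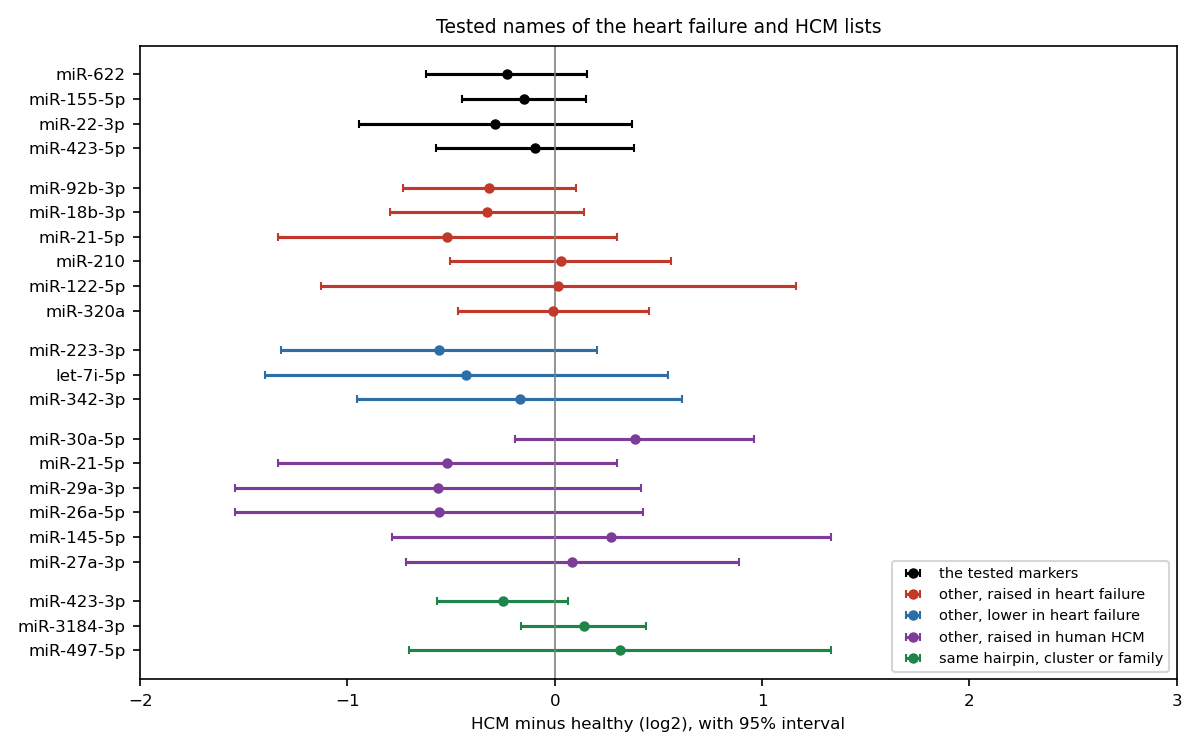
Difference HCM minus healthy (log2, horizontal axis) with its 95% interval for the tested markers and the tested names of the other lists, coloured by list. Every interval includes 0, and miR-21-5p appears in 2 lists with the same value of -0.52.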

How the data were processed

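Per the file headers, the deposited scanner files hold spot intensity from Agilent Feature Extraction 10.7.3.1, background-subtracted and not normalized between arrays, with flags for each spot. The authors' deposited table holds log2 values whose normalization is not stated and stays unknown. Scale and direction were settled against the scanner signals (correlation per array 0.987 to 0.9998, slope 0.950 to 0.980, over signals above 8), with column medians between 2.98 and 3.31. From the processed signals, control and outlier spots were removed, spots averaged per probe, and arrays scaled to the 75th percentile of the 508 probes detected on all arrays, because 18.6% of probe values were detected. Before log2, scaled values under 5.45 were set to it (the 5th percentile over detected probes). The brightest probe stood for a name, and names detected on at least 6 arrays were tested with limma 3.58.1 (R 4.3.3). Permutation tests drew 100000 resamples (numpy 2.4.6, scipy 1.17.1). The number of arrays limits the precision. The scripts were tested on simulated data.

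The 6 markers and the lists were chosen with earlier results of these data known. The named miRNAs were all markers, the 3 tested names most correlated with each tested marker, and up to 4 names of smallest p per list of the heart failure, HCM and relatives lists. Names under the detection limit that are given with array counts (muscle miRNAs and relatives of miR-195-5p and miR-199a-5p) fall outside this rule and were chosen after their values were seen. For red cell, platelet and leukocyte names the range is given. Alternatives were another background correction (normexp with offset 50 on median signals, since the files have no mean signal), scaling, floor, filter, probe rule, test, the deposited values, the total gene signal, slide, brightness, and each array left out. No sequences of the probes or of cat miRNAs were used here.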

Additional observations from a re-analysis of the deposited data

How the results depend on the processing

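No marker passed an adjusted p of 0.05 under any of the alternatives run (lowest 0.395), nor without any 1 array (lowest 0.608). The count of called names rose from 0 to 4 on the deposited log2 values, 4 on the total gene signal, 1 with a lower floor and 1 with a permutation test, and was 0 in each fit that left out 1 array. The difference of miR-423-5p turned positive on the deposited values (0.062) and without scaling (0.32), that of miR-22-3p without scaling (0.13), and that of miR-622 on the total gene signal (0.19). With 1 array left out, miR-423-5p ranged from -0.18 to 0.023, miR-22-3p from -0.49 to -0.14, miR-622 from -0.35 to -0.17 and miR-155-5p from -0.17 to -0.038. Neither the slide interaction nor detection gave a call under its alternatives, each 0 to 0 with 1 array left out. Correlated pairs past the threshold rose from 0 to 1 after normexp (miR-622 and miR-155-5p, r = 0.98) and to 2 without scaling. After normexp, r of miR-622 with array brightness was -0.986. The lowest r of a marker with brightness or the red cell measure was then -0.993. Without scaling, r of miR-423-5p and miR-22-3p was 0.62 (permutation test, adjusted p 0.00804). A higher floor took miR-622 to -0.018 and miR-155-5p to -0.029. Relations with brightness or the red cell measure rose from 0 to 2 after normexp, 4 without scaling and 2 on the total gene signal, and r of miR-423-5p with the red cell measure turned to -0.15 without scaling. The causes were not tested. No paired analysis was possible because the groups share no replicate numbers. Signals near background limit miR-622 and miR-155-5p, and for miR-195-5p and miR-199a-5p no statement on a difference is possible.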
